A study of Mus musculus with 16 samples.

Results

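Enzymes that modify and clear foreign compounds were followed in mouse airway epithelium after chronic allergen challenge. The members were chosen by gene symbol alone: Cyp, Fmo, Aox, Ugt, Sult or Ces followed by a digit, or a symbol starting with Gsta, Gstm, Gstt, Gsto, Gstp, Aldh, Akr1 or Ephx. By this rule 184 of the 17178 gene symbols on the array were members, and 126 of them were measured among the 18566 genes and unnamed transcripts tested. The rule goes by name, so it also takes in relatives with mainly endogenous substrates, such as Cyp51 of sterol synthesis and Aldh18a1 of proline synthesis. The other 58 members were left out because their probes were well above background on fewer than 4 of 16 arrays or, for Cyp27a1 and Cyp2g1, stayed at the common floor. They included Cyp1a1, Cyp1a2, the Cyp2c members other than Cyp2c70, and Ugt1a1.

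RNA of airway epithelium brushed from FvB mice was hybridized to 16 one-colour arrays. There were 4 groups of 4 arrays. The wt_OVA group held wild type mice given ovalbumin (OVA, an egg white protein used as an experimental allergen), with 20 ug by intraperitoneal injection on days 1, 4 and 7 and then 10 ug into the nose weekly for 9 weeks, and the wt_saline group held wild type mice given saline by the same routes and schedule. The ko_OVA and ko_saline groups held mice with a knockout of beta6, the integrin subunit encoded by Itgb6, treated in the same 2 ways. All mice were 6 to 8 weeks old at sensitization and tissue was taken 24 h after the last challenge. The labels do not say whether an array held 1 animal or a pool, nor the sex, so p-values measure the spread between these arrays.

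Levels are log2 signals relative to the 75th percentile of the array, so that a level of 0 is the 75th percentile, and every change is a difference of such log2 levels. The 75th percentile of signal ran from 78.0 to 793 over the arrays, and 43.3% to 74.5% of probes were well above background. The 2 highest shares were 74.5% on wt_OVA 1 and 72.7% on wt_OVA 2. The Itgb6 probe was lower by 0.34 in ko than in wt epithelium over both agents (adjusted p = 0.452), and the files do not say whether it lies in the deleted part, so it does not check the genotype labels. Of the markers of airway cells, 11 of 12 club cell and 13 of 13 ciliated cell genes were measured. Genes of other cells and tissues were measured too. They were 11 of 11 alveolar, 12 of 12 striated muscle, 10 of 10 fibroblast and smooth muscle, 6 of 7 adipocyte and 5 of 6 thyroid genes. Of 7 hepatocyte genes 0 were measured, and Serpina1a of that list was not on the array. Y-linked genes gave signal on 11 of the 16 arrays, with 2 arrays without it in ko_OVA, 2 in wt_OVA, 0 in ko_saline and 1 in wt_saline. Xist was above the floor on these 5 arrays and on no other. Arrays without Y-linked signal were thus more frequent with OVA than with saline. Counts with Y-linked signal as a covariate are given below. Because these are bulk samples, fewer cells of a type and less RNA per cell cannot be told apart in any result below.

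Foreign compounds are cleared in steps. Cytochromes P450 (Cyp), flavin monooxygenases (Fmo), aldehyde oxidases (Aox), aldehyde dehydrogenases (Aldh), aldo-keto reductases (Akr1), epoxide hydrolases (Ephx) and carboxylesterases (Ces) expose or add reactive groups, and glutathione S-transferases (Gst), sulfotransferases (Sult) and UDP-glucuronosyltransferases (Ugt) then attach a water-soluble tag. In the airway the club cell, a secretory cell of the bronchiolar lining, is the best known site of this metabolism and is rich in Cyp2f2.

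The promoters of the 5 enzymes that passed the test in each genotype taken alone are shown. Among these, the ko calls of Ephx1 and Aox3 were lost under 28 and 17 of 34 alternative settings. Each is 300 bases, 250 before the first listed transcription start and 50 after it, from RefSeq on GRCm38.p6, written 5′ to 3′ on the gene's strand. Capitals mark 3 motifs searched on both strands. GCGTG is the core bound by the aryl hydrocarbon receptor with Arnt, and TGACNNNGC is the core of the antioxidant response element. TTGCNNAA is a loose pattern for the site of the C/EBP factors and is not itself a palindrome.
Aox3, chr1:58112886-58113185, plus strand: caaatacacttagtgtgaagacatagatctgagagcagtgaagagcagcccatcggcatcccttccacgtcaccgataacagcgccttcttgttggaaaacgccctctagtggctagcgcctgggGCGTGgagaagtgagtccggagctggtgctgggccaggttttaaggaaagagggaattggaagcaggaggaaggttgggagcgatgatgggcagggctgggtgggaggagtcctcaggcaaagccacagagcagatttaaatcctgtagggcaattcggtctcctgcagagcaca
Ephx1, chr1:181017520-181017819, minus strand: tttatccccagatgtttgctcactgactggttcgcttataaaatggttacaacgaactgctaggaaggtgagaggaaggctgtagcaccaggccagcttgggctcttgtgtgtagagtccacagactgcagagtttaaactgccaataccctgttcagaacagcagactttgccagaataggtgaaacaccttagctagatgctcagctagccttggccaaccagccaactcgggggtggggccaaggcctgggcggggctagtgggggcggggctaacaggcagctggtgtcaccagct
Gsta1, chr9:78230419-78230718, plus strand: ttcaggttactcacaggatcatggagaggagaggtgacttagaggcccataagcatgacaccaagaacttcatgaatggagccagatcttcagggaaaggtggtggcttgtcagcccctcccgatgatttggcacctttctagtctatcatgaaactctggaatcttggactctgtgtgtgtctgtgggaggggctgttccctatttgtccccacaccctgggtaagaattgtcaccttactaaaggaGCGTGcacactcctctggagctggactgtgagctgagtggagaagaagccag
Gsta2, chr9:78347096-78347395, minus strand: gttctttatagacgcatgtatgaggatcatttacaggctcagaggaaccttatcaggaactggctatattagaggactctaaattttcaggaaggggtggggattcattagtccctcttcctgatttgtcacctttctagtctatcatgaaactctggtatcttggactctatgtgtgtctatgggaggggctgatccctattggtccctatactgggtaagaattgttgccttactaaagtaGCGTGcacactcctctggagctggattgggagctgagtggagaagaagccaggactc
Gstt1, chr10:75797682-75797981, minus strand: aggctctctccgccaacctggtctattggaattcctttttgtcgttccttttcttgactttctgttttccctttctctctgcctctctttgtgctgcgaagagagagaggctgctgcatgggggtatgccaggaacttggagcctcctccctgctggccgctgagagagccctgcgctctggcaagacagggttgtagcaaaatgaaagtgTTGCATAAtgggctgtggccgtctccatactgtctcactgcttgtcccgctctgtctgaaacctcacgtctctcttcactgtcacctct

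GCGTG stood once in each of the Aox3, Gsta1 and Gsta2 windows, TTGCNNAA once in that of Gstt1, and Ephx1 held none of the 3 motifs. The Gsta1 and Gsta2 windows, of paralogs on chromosome 9, shared an unbroken run of 29 bases upstream of the start. Promoters of this length were found for 102 of the 126 measured members and for 21 of the 31 that fell over both genotypes. GCGTG was in 28.6% of the promoters of members that fell, in 30.4% of those of all members and in 32.5% of the 27025 promoters in the table. TGACNNNGC was in 9.52%, 7.84% and 12.5% of the same promoters, in the same order. TTGCNNAA was in 28.6% of the promoters of members that fell, 23.5% of those of all members and 10.8% of the whole table. These shares describe letters in a window and were not tested.

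The first comparison asked what chronic OVA does to these enzymes in wild type epithelium. Of the 126 measured members, 21 fell in wt_OVA relative to wt_saline and 0 rose, which is 16.7% of the members, whereas 1.06% of all genes tested fell and 1.56% rose. The median change was -0.24 over the members and 0.00 over all genes tested. Members that fell came from 11 of the 14 families, among them the glutathione transferases Gstt1, Gsta1 and Gsta2, the steroid-reducing aldo-keto reductase Akr1c18, the oxygenases Fmo1 and Cyp4a12b, the aldehyde oxidase Aox3 and the sulfotransferase Sult1a1. Levels in wt_OVA and wt_saline did not overlap for 32 members that were lower and 7 that were higher, against 4.41% and 4.87% of all genes tested. Within each of the 3 slides that held both groups, the mean of wt_OVA was below that of wt_saline for 21 of the 21, with 2 of the slide values missing. The wild type groups of these 21 did not overlap, so this order was fixed and adds no support. The count was 11 without wt_saline 2, 11 without both wt_OVA 1 and wt_OVA 2, 7 when arrays were scaled to the median, which moved the median change of all genes to -0.25, and 4 (3 lower and 1 higher) with array position on the slide as a block. Position was unevenly filled, since the 4 arrays at position 4 all came from OVA groups.

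In ko epithelium 7 members fell with OVA and 0 rose, 5.56% of the members, against 0.269% of all genes tested that fell and 0.479% that rose. They were Gstt1, Gsta2, Gstt2, Gsta1, Aldh1l1, Ephx1 and Aox3, and the median change over the members was -0.04, against 0.00 over all genes. The levels did not overlap for 19 members that were lower and 0 that were higher, against 2.14% and 3.09% of all genes. All 7 were lower in ko_OVA within each of the 3 slides that held both groups. The ko groups of these 7 did not overlap, so this order was fixed and adds no support. The count depended on the arrays: it was 1 without ko_saline 1, 2 without ko_saline 2, ko_OVA 2 or ko_OVA 4, 3 without ko_OVA 3, and 4 without ko_saline 3 or ko_saline 4. It was 0 with median scaling or with only the 8 ko arrays fitted, 3 with slide as a block, and 2 with position.

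Over both genotypes, that is the mean of the OVA effects in wt and ko, 31 members fell and 2 rose, against 2.74% and 3.72% of all genes tested. The 8 OVA arrays lay wholly below the 8 saline arrays for 9 members: Gstt1, Akr1c18, Fmo1, Gsta1, Cyp4a12b, Ephx1, Aldh1l1, Aox3 and Cyp4b1. That arrangement occurred for 0.382% of all genes tested. Of the 31 that fell, 22 had also passed in wt or in ko and 9 had passed in neither, among them Aldh2, Aldh3a1, Fmo2 and Ces1g. With median scaling 17 members passed, all lower, and with position as a block 14 did, 13 lower and 1 higher. Gstt1, Akr1c18, Gsta1, Gsta2, Gstt2, Cyp4a12b, Aldh1l1, Aox3, Ephx1 and Gstm2 kept this call over both genotypes under every alternative that measured them.

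**Figure D1:**
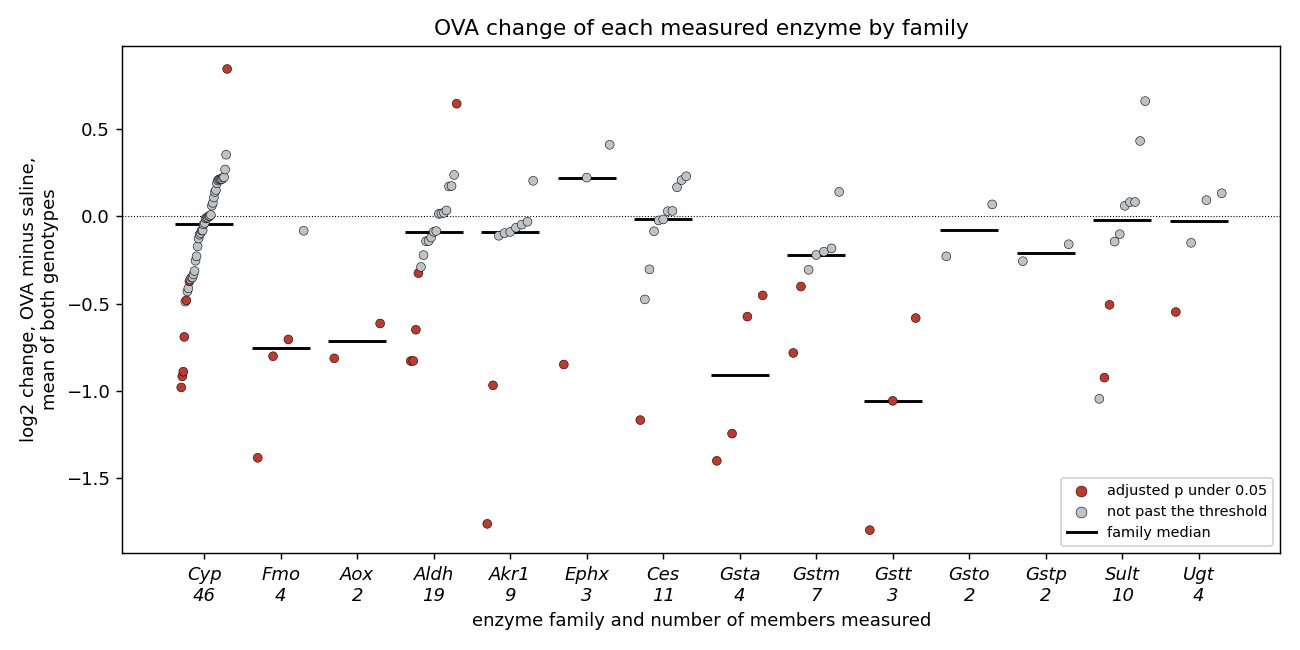
Change with OVA of each of the 126 measured enzymes, as the log2 difference of OVA and saline arrays averaged over both genotypes (vertical axis), by family (horizontal axis, with the number of members measured). Red points passed an adjusted p of 0.05, grey points did not, and bars are family medians; all 4 Gsta and all 3 Gstt members lie below 0 and passed.

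Cytochromes P450 were the family with the most members. Of 46 measured, 4 fell in wt, 0 in ko, and 6 fell and 1 rose over both genotypes, with a family median of -0.04. Those that fell in wt were Cyp2a22, Cyp4a12b, Cyp4a12a and Cyp4b1, and Cyp39a1 and Cyp2j6 joined them over both genotypes. The Cyp39a1 call was lost under 19 of 33 alternatives and that of Cyp2j6 under 24 of 33. Cyp4a12b, a fatty acid hydroxylase, had levels of 1.39, 1.71, 1.81 and 1.19 in wt_OVA, against 3.14, 2.54, 2.82 and 2.65 in wt_saline. In ko the levels were 2.37, 1.81, 2.16 and 2.29 in ko_OVA, against 3.05, 2.57, 2.79 and 2.49 in ko_saline. Every OVA array lay below every saline array of both genotypes. The change was -1.26 (SE 0.18, adjusted p = 0.00211) in wt, a call kept under every alternative run, and -0.57 (SE 0.18, adjusted p = 0.223) in ko. Its neighbour and close paralog Cyp4a12a changed by -1.13 (SE 0.24, adjusted p = 0.0238) in wt, with 3 of 4 wt_saline arrays measured. This call was lost under 9 of 33 alternatives, and the 2 probes may share transcript.

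Cyp2a22, a member of the coumarin hydroxylase subfamily, had levels of 3.33, 4.73, 4.27 and 4.25 in wt_OVA, against 5.44, 5.94, 5.43 and 5.19 in wt_saline. Levels in ko were 4.96, 4.84, 4.19 and 4.43 in ko_OVA, against 5.30, 5.61, 4.95 and 4.98 in ko_saline. The wild type groups were separate and the ko groups just overlapped, with changes of -1.35 (SE 0.27, adjusted p = 0.0161) and -0.61 (SE 0.27, adjusted p = 0.484). The wild type call was lost under 6 of 34 alternatives, among them the omission of wt_saline 2. Cyp4b1, which activates furans in lung, fell by 0.93 in wt (SE 0.14, adjusted p = 0.00433), with 6.09, 6.66, 6.57 and 6.37 in wt_OVA against 7.27, 7.53, 7.20 and 7.40 in wt_saline.

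The P450 most typical of the club cell did not pass. Cyp2f2, which activates naphthalene, had 8.90, 8.14 and 9.14 on the 3 wt_OVA arrays measured, against 9.59, 10.19 and 8.75 on 3 wt_saline arrays. It had 8.09, 8.79, 8.43 and 10.16 in ko_OVA, against 8.54, 7.71 and 9.38 on 3 ko_saline arrays. The groups overlapped in both genotypes, and the change was -0.78 in wt (95% interval -2.06 to 0.49) and 0.33 in ko (95% interval -0.86 to 1.52), so that a change past 1 log2 unit either way lies within at least 1 of these intervals. Cyp2a5, next to Cyp2a22 on chromosome 7, changed by -0.44 (SE 0.51, adjusted p = 0.702) and 0.46 (SE 0.59, adjusted p = 0.928). Cyp2b10, the phenobarbital-inducible lung P450, changed by -0.35 (SE 0.22, adjusted p = 0.483) and -0.35 (SE 0.22, adjusted p = 0.718), and Cyp2s1 by 0.12 (SE 0.21, adjusted p = 0.808) and -0.12 (SE 0.23, adjusted p = 0.982), in wt and in ko in that order.

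Cyp51 was the P450 that rose over both genotypes, by 0.84 (SE 0.16, adjusted p = 0.00676). This sterol demethylase of cholesterol synthesis had levels of -1.20, -1.53, -1.65 and -0.99 in wt_OVA, against -2.06, -2.56, -1.91 and -2.30 in wt_saline. The ko levels were -2.08, -0.93, -1.17 and -1.55 in ko_OVA, against -2.22, -2.07, -2.18 and -2.55 in ko_saline. One ko_OVA array lay among the ko_saline arrays, the wild type groups were separate, and the call was lost with median scaling and with position as a block.

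Among the flavin monooxygenases, which oxidize nitrogen and sulfur in drugs, Fmo1 fell in wt. It had levels of -2.20, -0.11, -1.43 and -1.70 in wt_OVA, against 0.23, 0.69, 0.12 and 0.29 in wt_saline. Each wt_OVA array was below each wt_saline array, though wt_OVA 2 came close to the lowest of them. Changes were -1.69 (SE 0.37, adjusted p = 0.0252) in wt and -1.07 (SE 0.37, adjusted p = 0.284) in ko, and the wild type call was lost without wt_saline 1, 2 or 4 and without wt_OVA 1, 3 or 4. Its neighbour Fmo2, the main lung form in mice, changed by -0.80 (SE 0.20, adjusted p = 0.0299) over both genotypes, a call lost under 14 of 33 alternatives.

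Both aldehyde oxidases measured fell. Aox3 had levels of 2.14, 2.68, 2.38 and 2.19 in wt_OVA, against 3.53, 3.37, 3.35 and 3.18 in wt_saline. In ko epithelium they were 2.97, 2.62, 2.63 and 2.92 in ko_OVA, against 3.49, 3.48, 3.36 and 3.26 in ko_saline. Neither pair of groups overlapped, and all 8 OVA arrays lay below all 8 saline arrays. The change was -1.01 (SE 0.13, adjusted p = 0.000933) in wt, -0.61 (SE 0.13, adjusted p = 0.0407) in ko and -0.81 (SE 0.09, adjusted p = 0.000119) over both, and the ko call was lost under 17 of 34 alternatives.

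Aox1, which lies beside Aox3 on chromosome 1, had levels of 1.56, 1.72, 1.97 and 2.01 in wt_OVA, against 2.53, 2.33, 2.41 and 2.68 in wt_saline. The ko groups had 2.59, 2.65, 2.66 and 2.40 in ko_OVA, against 3.23, 2.72, 3.52 and 3.05 in ko_saline. After either agent all ko arrays stood above all wt arrays. With OVA it changed by -0.67 (SE 0.15, adjusted p = 0.0333) in wt and -0.55 (SE 0.15, adjusted p = 0.155) in ko, and by -0.61 (SE 0.11, adjusted p = 0.00418) over both. The wild type call was lost under 13 of 34 alternatives.

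Of the 19 aldehyde dehydrogenases, 4 fell and 1 rose over both genotypes, with 0 past the test in wt and 1 in ko. That 1 was Aldh1l1, which oxidizes formyl-tetrahydrofolate rather than an aldehyde drug. Its levels were 0.70, 0.09, 0.73 and 0.91 in ko_OVA, against 1.72, 1.40, 1.38 and 1.70 in ko_saline, and 1.05, 0.51, 0.43 and 0.88 in wt_OVA, against 1.26, 1.61, 1.34 and 1.50 in wt_saline. No OVA array reached the lowest saline array in either genotype. The change was -0.94 (SE 0.18, adjusted p = 0.0255) in ko and -0.71 (SE 0.18, adjusted p = 0.0523) in wt. The ko call was lost under 10 of 34 alternatives, among them the omission of ko_saline 1, 2 or 4 or ko_OVA 2. Aldh2, which clears acetaldehyde, and Aldh3a1, which clears aromatic and lipid aldehydes, changed by -0.65 (SE 0.16, adjusted p = 0.03) and -0.83 (SE 0.21, adjusted p = 0.032) over both genotypes. Omission of single arrays ended both calls, and in all Aldh2 lost its call under 11 of 33 alternatives (limma adjusted p up to 0.331) and Aldh3a1 under 12 of 33 (up to 0.32). The smallest called fall was that of Aldh4a1 of proline breakdown, -0.32 (SE 0.09, adjusted p = 0.0379), and it was lost under 19 of 33 alternatives.

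Aldh18a1 rose over both genotypes by 0.65 (SE 0.15, adjusted p = 0.0193). Its levels were -0.84, -0.86, -0.72 and -0.83 in wt_OVA, against -1.91, -1.55, -1.66 and -1.43 in wt_saline, and -1.43, -0.49, -0.75 and -0.84 in ko_OVA, against -1.27, -1.93, -0.92 and -1.25 in ko_saline. The wild type groups were separate and the ko groups overlapped. The Aldh18a1 call was lost under 5 of 33 alternatives (limma adjusted p up to 0.272). Among them were median scaling, position as a block and the omission of both wt_OVA 1 and wt_OVA 2. Aldh1a1, a retinal dehydrogenase abundant in airway epithelium, changed by -0.21 (SE 0.22, adjusted p = 0.676) in wt and -0.07 (SE 0.26, adjusted p = 1) in ko. Aldh1a2, another retinal dehydrogenase, did not pass in any comparison. With saline, 3 of the 4 wild type arrays read it at the floor, which leaves only a bound on its change there.

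Of 9 aldo-keto reductases, 2 fell in wt and over both genotypes and 0 in ko. Akr1c18, which inactivates progesterone, had levels of -0.25, -0.03, -0.19 and -0.23 in wt_OVA, against 2.82, 1.54, 1.38 and 1.92 in wt_saline. It had 1.23, -0.26, 0.63 and 0.58 in ko_OVA, against 2.36, 2.28, 1.83 and 1.43 in ko_saline. The 4 wt_OVA arrays were tightly grouped more than 1 log2 unit below the lowest wt_saline array, while the ko_OVA arrays were spread more widely. The change was -2.09 (SE 0.33, adjusted p = 0.00397) in wt, the largest fall of any member there, -1.43 (SE 0.33, adjusted p = 0.0687) in ko and -1.76 (SE 0.23, adjusted p = 0.000505) over both. The wild type call was lost without both wt_OVA 1 and wt_OVA 2 and with position as a block. Its neighbour Akr1c14, a hydroxysteroid dehydrogenase, changed by -1.29 (SE 0.27, adjusted p = 0.0213) in wt and -0.65 (SE 0.27, adjusted p = 0.43) in ko, and its wild type call was lost under 8 of 34 alternatives. The other 7 Akr1 members, Akr1c12 and Akr1c19 of the same subfamily among them, did not pass in any OVA comparison.

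**Figure D2:**
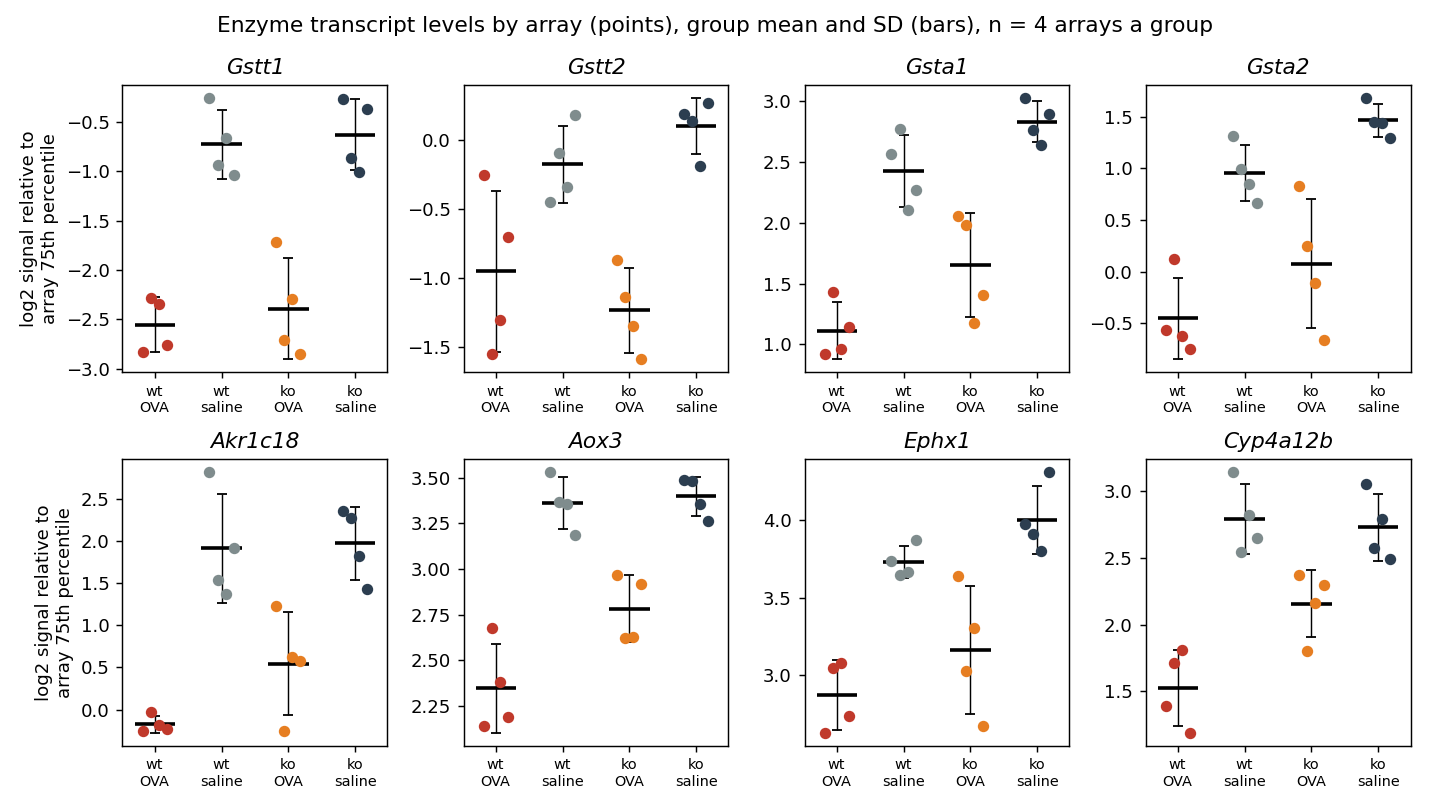
Log2 level relative to the 75th percentile of the array (vertical axes) of 8 enzymes on each array (points), by group (horizontal axes), with the group mean and SD (bars). Each vertical axis has its own range and does not start at 0; OVA arrays lie below the saline arrays of their genotype for all of these genes except Gstt2 in wild type mice.

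Of the 3 epoxide hydrolases measured, Ephx1 fell. This microsomal enzyme opens arene and alkene epoxides made by P450s. Its levels were 2.63, 3.05, 3.08 and 2.74 in wt_OVA, against 3.73, 3.65, 3.67 and 3.87 in wt_saline. The ko levels were 3.64, 3.03, 3.30 and 2.67 in ko_OVA, against 3.98, 3.91, 3.80 and 4.31 in ko_saline. All 8 OVA arrays were below all 8 saline arrays. The change was -0.86 (SE 0.18, adjusted p = 0.0213) in wt, -0.84 (SE 0.18, adjusted p = 0.0495) in ko and -0.85 (SE 0.13, adjusted p = 0.00135) over both, and its second probe changed by -0.83 in wt and -0.73 in ko. The wild type call was lost under 10 of 34 alternatives, among them the omission of wt_saline 1, 2 or 4 or wt_OVA 1 or 4 (limma adjusted p up to 0.197). The ko call, close to the threshold, was lost under 28 of 34 alternatives, including the omission of any ko array except ko_OVA 1. The soluble hydrolase Ephx2, which acts on fatty acid epoxides, changed by 0.82 (SE 0.44, adjusted p = 0.376) in wt and -0.37 (SE 0.44, adjusted p = 0.908) in ko.

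Carboxylesterases, which split ester drugs and lipids, passed in 1 of 11 members in wt and a different 1 over both genotypes. Ces1d changed by -0.76 (SE 0.18, adjusted p = 0.0454) in wt, with 3 of 4 ko_saline arrays measured, and this call was lost under 24 of 33 alternatives. Ces1g changed by -1.17 (SE 0.28, adjusted p = 0.0234) over both genotypes. It had -1.36, -2.52, -3.32 and -2.64 in wt_OVA, against -1.61, -1.54, -2.06 and -1.33 in wt_saline, and -2.43, -2.29, -1.54 and -3.22 in ko_OVA, against -0.56, -1.38, -1.06 and -0.46 in ko_saline. The ko groups were separate, whereas the wild type groups overlapped and wt_OVA 3 was at the floor. The call was lost with slide as a block, with the striated muscle or Y-linked covariate and on the arrays with Y-linked signal alone. Ces1 genes lie in a row of close paralogs on chromosome 8, so which copy each probe reads is uncertain. The neighbours Ces1b, Ces1c, Ces1e and Ces1f did not pass.

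Conjugating enzymes follow, beginning with the glutathione transferases. Of the 18 glutathione transferases measured, 6 fell in wt, 4 in ko and 9 over both genotypes, and 0 rose. The theta class fell in 3 of 3 members, the alpha class in 4 of 4 and the mu class in 2 of 7 over both genotypes, while the omega and pi classes passed in 0 of 2 each.

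Gstt1, which conjugates small halogenated compounds and epoxides, had levels of -2.83, -2.28, -2.35 and -2.76 in wt_OVA, against -0.26, -0.94, -0.67 and -1.04 in wt_saline. Levels in ko were -1.72, -2.71, -2.30 and -2.85 in ko_OVA, against -0.27, -0.87, -1.004 and -0.37 in ko_saline. The groups were separate in both genotypes, with all OVA arrays below all saline arrays. The change was -1.83 (SE 0.26, adjusted p = 0.0018) in wt, -1.76 (SE 0.26, adjusted p = 0.00449) in ko and -1.80 (SE 0.18, adjusted p = 5.67e-05) over both, which corresponds to a level 3.47-fold lower. The wild type call was lost with position as a block (adjusted p = 0.0645) and the ko call with median scaling (adjusted p = 0.0698) and with the 8 ko arrays fitted alone (adjusted p = 0.128).

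Gstt2 had -0.86, -1.13, -1.34 and -1.58 in ko_OVA, against 0.19, 0.14, -0.19 and 0.27 in ko_saline. In wild type mice it had -0.25, -1.55, -1.30 and -0.70 in wt_OVA, against -0.45, -0.09, -0.34 and 0.18 in wt_saline. The ko groups were separate, and the wild type groups overlapped because wt_OVA 1 lay among the saline arrays. Its change was -1.34 (SE 0.25, adjusted p = 0.023) in ko, -0.78 (SE 0.25, adjusted p = 0.123) in wt and -1.06 (SE 0.18, adjusted p = 0.00271) over both. Leaving out ko_saline 1, 2 or 4 or ko_OVA 2, 3 or 4 ended the ko call. Gstt3, which lies next to Gstt1 on chromosome 10, changed by -0.74 (SE 0.14, adjusted p = 0.013) in wt and -0.42 (SE 0.14, adjusted p = 0.27) in ko.

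Alpha class enzymes conjugate lipid peroxidation products and many drugs. Gsta1 had levels of 0.92, 1.43, 0.96 and 1.14 in wt_OVA, against 2.56, 2.77, 2.11 and 2.27 in wt_saline. It had 2.05, 1.98, 1.18 and 1.41 in ko_OVA, against 3.02, 2.76, 2.64 and 2.89 in ko_saline. Neither genotype's groups overlapped, and its change was -1.31 (SE 0.20, adjusted p = 0.00343) in wt, -1.17 (SE 0.20, adjusted p = 0.014) in ko and -1.24 (SE 0.14, adjusted p = 0.000156) over both. Without ko_saline 1 or ko_OVA 4 the ko call was lost.

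Gsta2 had -0.56, 0.13, -0.62 and -0.75 in wt_OVA, against 1.31, 0.999, 0.85 and 0.67 in wt_saline. In ko it had 0.83, 0.25, -0.11 and -0.66 in ko_OVA, against 1.68, 1.45, 1.44 and 1.29 in ko_saline. The groups were separate within each genotype, with changes of -1.41 (SE 0.27, adjusted p = 0.0125) and -1.39 (SE 0.27, adjusted p = 0.0257), and 1 ko_OVA array reached the lower wt_saline arrays. The ko call was lost under 13 of 34 alternatives, among them the omission of ko_saline 1, 2 or 3, ko_OVA 2, 3 or 4, or wt_OVA 1. Gsta1 and Gsta2 are near-identical paralogs, so their probes may share transcript and the 2 results are not independent. Gsta3, the alpha form prominent in lung, changed by -0.87 (SE 0.18, adjusted p = 0.0172) in wt and -0.28 (SE 0.18, adjusted p = 0.703) in ko, and Gsta4, which prefers hydroxynonenal, by -0.45 (SE 0.12, adjusted p = 0.0376) over both. The Gsta3 call was lost under 8 of 34 alternatives and the Gsta4 call under 20 of 33, which included the omission of most single arrays (limma adjusted p up to 0.38).

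In the mu class Gstm2 had levels of 6.17, 6.11, 6.07 and 6.50 in wt_OVA, against 7.39, 7.46, 6.78 and 7.20 in wt_saline. Its levels in ko were 6.54, 6.15, 6.61 and 6.80 in ko_OVA, against 7.18, 7.29, 6.72 and 7.19 in ko_saline. The wild type groups were well apart and 1 ko_saline array lay within the ko_OVA range. Changes were -0.997 (SE 0.18, adjusted p = 0.00901) in wt and -0.57 (SE 0.18, adjusted p = 0.224) in ko. Gstm7 also fell over both genotypes, with a change of -0.40 (adjusted p = 0.0311), near the floor of measurement, and this call was lost under 17 of 32 alternatives. Gstp1, the main pi form of lung, changed by -0.37 (SE 0.16, adjusted p = 0.273) and 0.05 (SE 0.18, adjusted p = 1), and Gsto1 of the omega class by -0.22 (SE 0.17, adjusted p = 0.54) and 0.36 (SE 0.18, adjusted p = 0.576), in wt and in ko in that order. The members of these 2 classes with the smallest p over both genotypes were Gstp3, at -0.26 (SE 0.11, adjusted p = 0.216), and Gsto2, at -0.23 (SE 0.17, adjusted p = 0.527).

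Sulfotransferases passed in 2 of 10 members in wt and in 0 of 10 in ko. Sult1a1, which sulfates phenols, had levels of 0.79, 1.77, 1.36 and 1.05 in wt_OVA, against 1.87, 2.80, 2.56 and 2.64 in wt_saline. The wild type groups came close without overlapping, and the changes were -1.23 (SE 0.24, adjusted p = 0.0156) in wt and -0.62 (SE 0.24, adjusted p = 0.389) in ko. The wild type call was lost under 7 of 34 alternatives, among them the omission of wt_saline 2 or wt_OVA 1.

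Sult1c2 had 0.97, 1.14, 1.08 and 0.86 in wt_OVA, against 1.84, 2.01, 1.97 and 2.24 in wt_saline. In ko it had 1.92, 1.69, 1.46 and 2.14 in ko_OVA, against 2.24, 1.63, 1.74 and 1.65 in ko_saline. The 4 wt_OVA arrays stood below the other 12, and the ko groups overlapped. Changes were -1.0003 (SE 0.16, adjusted p = 0.00407) in wt and -0.01 (SE 0.16, adjusted p = 1) in ko. Sult1e1, the oestrogen sulfotransferase, was lower by 1.04 over both genotypes without passing (SE 0.31, adjusted p = 0.0576), and wt_OVA 4, at -0.52, lay above all saline arrays.

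Of the 4 UDP-glucuronosyltransferases measured, Ugt1a6b, which conjugates simple phenols, fell. It had levels of 3.95, 3.81 and 3.64 on the 3 wt_OVA arrays measured, against 4.51, 4.51, 4.30 and 4.39 in wt_saline. The groups were separate and the change was -0.63 (SE 0.11, adjusted p = 0.0106) in wt, -0.47 (SE 0.10, adjusted p = 0.0683) in ko and -0.55 (SE 0.08, adjusted p = 0.00106) over both. Transcripts of the Ugt1 locus share their 3′ exons, so which isoform the probe reads is uncertain.

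**Figure D3:**
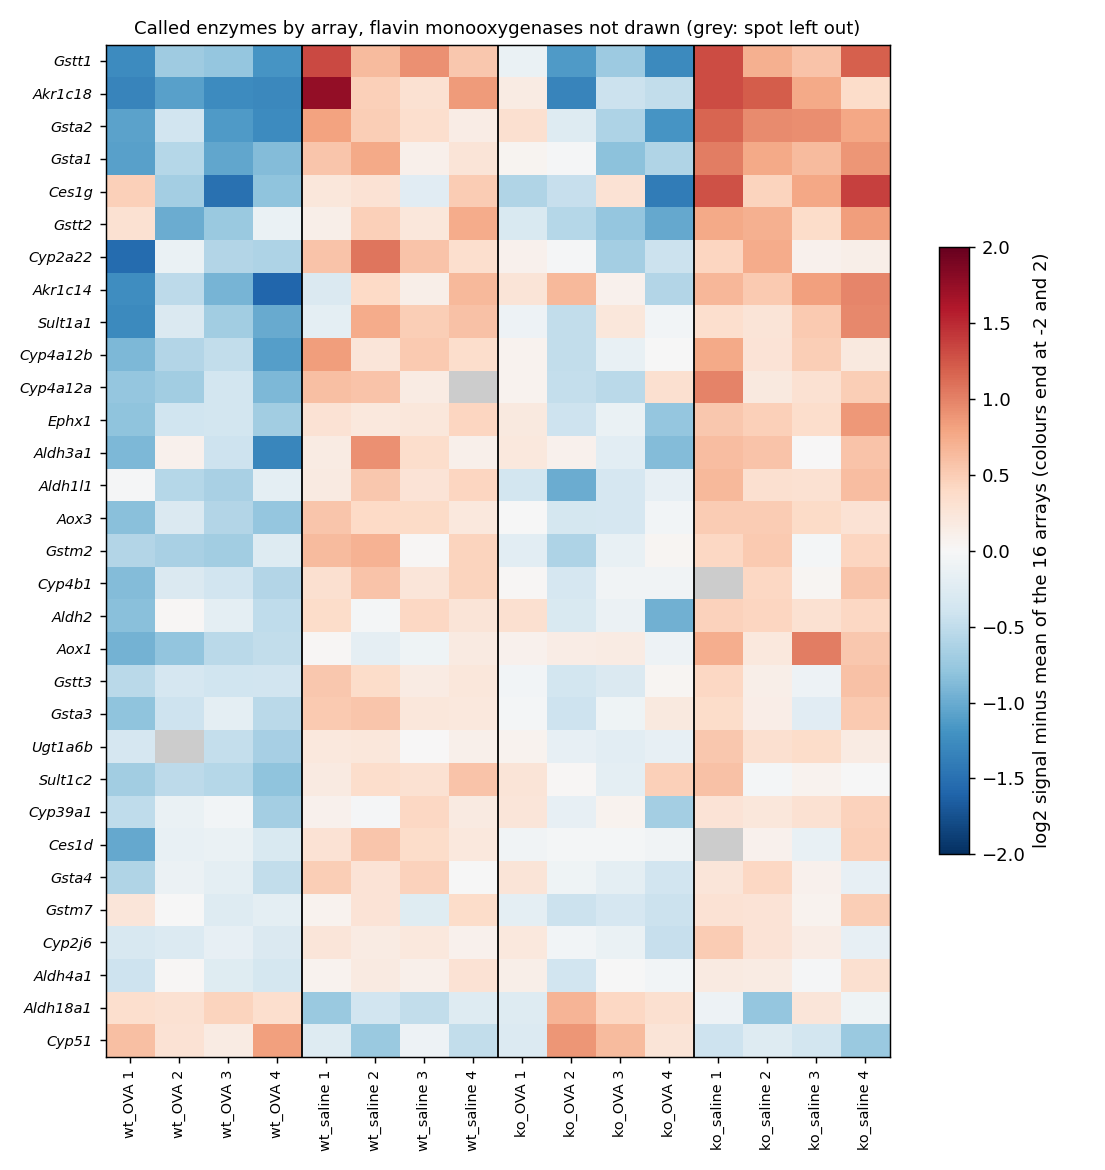
Log2 level of the 31 members past the test in any comparison, other than flavin monooxygenases (rows, ordered by the change over both genotypes) on the 16 arrays (columns), minus the mean of each gene over the arrays; grey cells are spots left out. Blue fills most of the 8 OVA columns and red most of the 8 saline columns, except in the last 2 rows, Aldh18a1 and Cyp51.

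Some members that fell lay beside others that did. Of 38 pairs of measured members that are next to each other in the annotation, both passed over both genotypes in 6: Akr1c14 with Akr1c18 on chromosome 13, Aox1 with Aox3 and Fmo1 with Fmo2 on chromosome 1, Cyp4a12a with Cyp4a12b on chromosome 4, Gsta4 with Gsta1 on chromosome 9 and Gstt3 with Gstt1 on chromosome 10. In 10 pairs 1 passed, such as Cyp2a22 beside Cyp2a5, and in 22 neither did. Neighbours here are paralogs, and probes of paralogs may share transcript, so the pairs were not tested.

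The second question was whether the knockout changed the enzymes or their response to OVA. With saline, 0 of 126 members passed between ko and wt by limma, against 0.162% of all genes, and 7 had an unadjusted p under 0.05, against 6.3% of all genes. With OVA, 0 passed against 0.145% of all genes, and 25 members had an unadjusted p under 0.05, which is 19.8% of members, against 5.08% of all genes. Levels in ko_OVA and wt_OVA did not overlap for 9 members that were higher in ko, among them Aox1, Sult1c2, Cyp2r1, Cyp3a13 and Ugt1a6b, against 1.63% of all genes, and for 1 that was lower, Ephx2, against 0.743%. Sult1c2 was higher in ko_OVA than in wt_OVA by 0.79 (SE 0.16, adjusted p = 0.109) and Aox1 by 0.76 (SE 0.15, adjusted p = 0.109). Ephx2 had -0.54, -2.72, -2.25 and -0.74 in ko_OVA, against -0.50, 0.00, -0.17 and -0.30 in wt_OVA, a difference of -1.32 (SE 0.44, adjusted p = 0.85).

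Aox1 was the 1 member past the test between ko and wt over both agents, higher in ko by 0.70 (SE 0.11, adjusted p = 0.00851), where 0.205% of all genes were higher. It was higher by 0.64 (SE 0.15, adjusted p = 0.244) with saline and, as above, after OVA. The call was lost with median scaling, with slide as a block, without both wt_OVA 1 and wt_OVA 2 and on the arrays with Y-linked signal alone. Without ko_OVA 4 there were 3 members past this test, Aox1 among them.

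The test of the difference between the OVA effects in ko and in wt passed for 0 members and 0 of all genes tested by limma, with 11 members at an unadjusted p under 0.05, against 3.06% of all genes. The median difference over members was 0.16, against 0.01 over all genes. Sult1c2 had the smallest p, with a difference of 0.99 (SE 0.22, adjusted p = 0.74). For Cyp4a12b it was 0.69 (SE 0.25, adjusted p = 0.993) and for Akr1c18 0.66 (SE 0.47, adjusted p = 0.993). All 21 members that fell in wt had a lower estimate in ko_OVA than in ko_saline as well, and all 7 that fell in ko had a lower estimate in wt. The 5 that passed in both, Aox3, Ephx1, Gsta1, Gsta2 and Gstt1, were 23.8% of the wild type calls and 71.4% of the ko calls. A larger number of calls in wt than in ko is therefore not a tested difference between the genotypes.

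**Figure D4:**
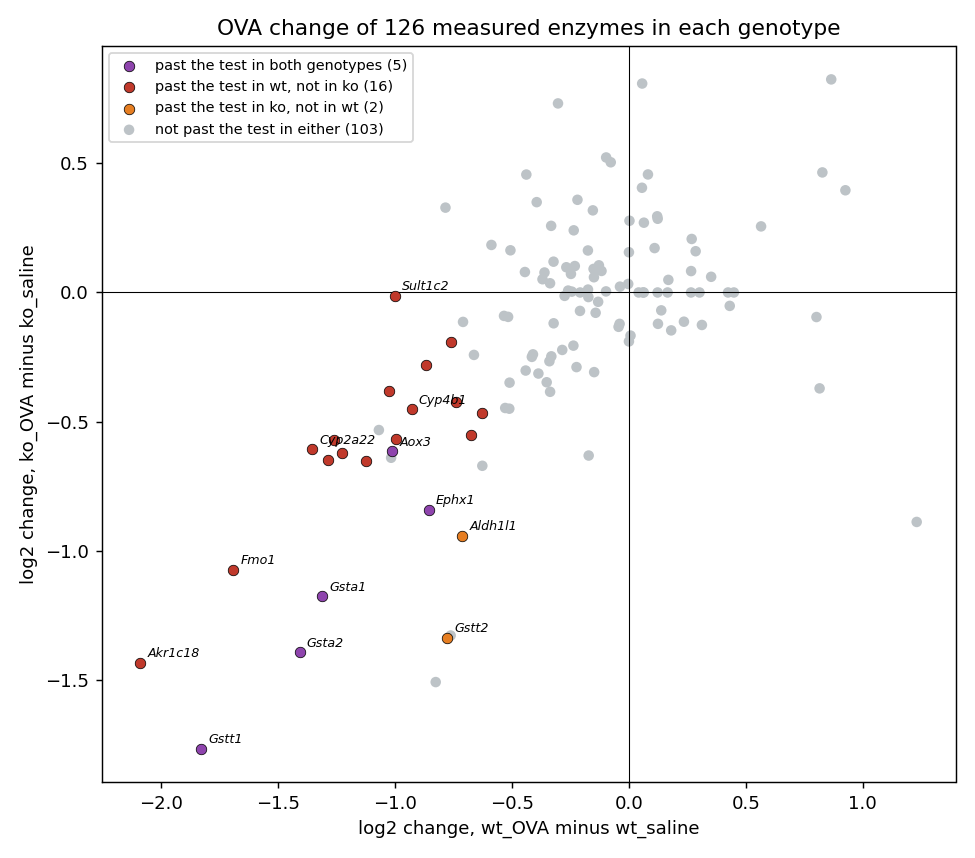
Change with OVA in ko (ko_OVA minus ko_saline, vertical axis, log2) against that in wt (wt_OVA minus wt_saline, horizontal axis, log2) for 126 enzymes (points), coloured by the test passed in each genotype. The 23 members that passed in either genotype all lie to the left of 0 and below it on both axes, with Gstt1, Akr1c18, Gsta1 and Gsta2 at the lower left.

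Other genes of the pathway were examined as lists. Of 11 measured regulators, among them Ahr, Nfe2l2 and Nr1i3, 0 passed in either genotype or over both; Ahr, the receptor for dioxins and other aromatic ligands, had the smallest p at -0.32 (SE 0.10, adjusted p = 0.0781). Of 12 genes of glutathione synthesis and the Nrf2 response 0 passed, with Gss, glutathione synthetase, at -0.29 (SE 0.08, adjusted p = 0.0548) and Nqo1 at -0.55 (SE 0.19, adjusted p = 0.113). Of 6 electron donors to P450s 1 fell over both genotypes, cytochrome b5 (Cyb5a), at -0.56 (SE 0.14, adjusted p = 0.0351), whereas the P450 reductase Por was at -0.40 (SE 0.15, adjusted p = 0.142).

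Other oxidizing and hydrolysing enzymes fell in 4 of 13 in wt, 2 in ko and 5 over both, and 0 rose. The monoamine oxidases Maob, at -1.17 (SE 0.24, adjusted p = 0.0198) in wt and -1.70 (SE 0.24, adjusted p = 0.00419) in ko, and Maoa, at -0.92 (SE 0.17, adjusted p = 0.0108) and -1.06 (SE 0.17, adjusted p = 0.00884), passed in both genotypes. Alcohol dehydrogenase Adh1 changed by -1.21 (SE 0.28, adjusted p = 0.0355) and paraoxonase Pon1 by -0.94 (SE 0.17, adjusted p = 0.00815) in wt, and xanthine dehydrogenase Xdh by -0.63 (SE 0.16, adjusted p = 0.0311) over both. Of 11 other conjugating genes 0 passed, with Gstz1 at -0.36 (SE 0.11, adjusted p = 0.0719) over both genotypes. Of 6 efflux transporters 2 fell in wt and over both, Abcc3 at -1.10 (SE 0.17, adjusted p = 0.00378) and Abcc4 at -0.64 (SE 0.15, adjusted p = 0.0406) in wt, and 0 in ko.

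Markers of airway cell types moved with OVA too. Of 11 club cell genes measured, 2 fell in wt, Hp and Cckar, and 0 in ko; Scgb1a1, the defining club cell secretoglobin, changed by -0.37 (SE 0.50, adjusted p = 0.751) in wt and 0.08 (SE 0.50, adjusted p = 1) in ko. Summed over the 7 club cell genes measured on all arrays, the linear signal relative to the 75th percentile was 435 to 538 in wt_OVA, against 676 to 1008 in wt_saline, and 492 to 662 in ko_OVA, against 448 to 1063 in ko_saline. Hp made up much of this sum, at log2 levels of 7.43 to 7.86 in wt_OVA and 8.82 to 9.44 in wt_saline. Scgb1a1 was not in it for missing values. The mean log2 level of the same 7 genes overlapped, at 4.74 to 5.09 in wt_OVA against 4.97 to 5.47 in wt_saline. In ko it was 4.78 to 5.32 with OVA, against 4.64 to 5.54 with saline. Over both genotypes 2 club cell genes fell and 1 rose, with a median change of 0.05. Of 11 mucous cell genes, 9 rose in wt and 8 in ko, and the sum over the 8 measured on all arrays was 164 to 237 in wt_OVA, against 49.8 to 76.3 in wt_saline, and 113 to 293 in ko_OVA, against 59.6 to 77.3 in ko_saline. Of 13 ciliated cell genes 3 rose in wt, 0 in ko and 8 over both genotypes, where the median change was 0.38 and all 13 estimates were above 0. Basal cell estimates were lower for 7 of 7 genes in wt and for 2 in ko, and 0 passed. Of 7 mast cell genes measured of 9 listed (Kit and Ms4a2 were not), 4 rose with OVA in wt, 0 in ko and 5 over both genotypes. Between ko and wt epithelium 6 of the 7 were higher in ko with saline, 5 with OVA and 6 over both agents, with median differences of 4.72, 2.57 and 3.38. The mast cell sum was 48.7 to 58.7 in wt_OVA, against 30.5 to 43.8 in wt_saline, and 85.4 to 129.8 in ko_OVA, against 75.9 to 97.3 in ko_saline. Every ko array, where Aox1 was higher, had a higher mast cell sum than every wt array. Of 11 alveolar genes 1 fell over both genotypes, with 9 estimates lower and 2 higher. The sum over 10 of them was 80.8 to 135.4 in wt_OVA, against 143.2 to 148.1 in wt_saline. In ko it was 88.9 to 134.8 with OVA, against 135.7 to 224.3 with saline. Their mean log2 level overlapped in wt, at 0.47 to 1.03 against 0.72 to 0.98. All 10 fibroblast and smooth muscle estimates were lower over both genotypes, and 0 passed. The part of these shifts in the enzyme results was not tested.

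Striated muscle transcripts also varied between arrays. The mean log2 level over the 11 of 12 genes measured on all arrays was 3.86 on wt_OVA 1, 4.54 on ko_saline 2 and 3.38 on ko_saline 3. On the others it was -2.41 to 1.72. With the mean over all 12 genes, missing values left out, as a covariate 23 members passed in wt, 2 in ko and 28 over both genotypes. With Y-linked signal as a covariate the counts were 24, 3 and 30.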

How the data were processed

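Per the labels' protocols, Cy3-labelled cRNA was made from 0.5 ug of RNA and hybridized to Agilent one-colour arrays. The deposited scanner files give each spot's intensity after background subtraction. They name Feature Extraction 10.5.1.1 in their headers, while the submitters' processing notes name 10.1. A deposited table of log2 values for the same arrays was used as an alternative only. Mean spot signals are not among the columns used here, so normexp, another alternative, started from the median spot intensity. Intensities carry no read depth, and the 4 arrays a group limit the precision.

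Control spots and outlier spots were dropped and replicate spots averaged. Each signal was divided by its array's 75th percentile, floored at -3.32 on the log2 scale and logged. A probe entered if it was well above background on 4 or more of the 16 arrays (25615 of 41174 probes), and the brightest probe stood for its gene. RefSeq accessions gave a symbol to 24844 probes on the array. RefSeq coordinates are of GRCm38.p6, and only those of the promoters are given.

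Group means of all 16 arrays were fitted with limma 3.58.1 in R 4.3.3. Every adjusted p is Benjamini-Hochberg over 18566 genes and transcripts, with 0.05 as threshold. The procedure was tested on simulated data. Alternatives changed the scaling, background correction, filter, floor, probe rule, blocks, covariates and the arrays used. The members and lists were chosen with earlier results of these data known. The rule for naming members took, in each OVA comparison, up to 12 called members with the largest change in each direction, up to 8 in the other comparisons, and the member with the smallest p of a family without a call. Genes of the other pathway lists were named from their calls or their smallest p. Not every member that this rule took is reported here. All remaining members named, such as Cyp2f2, Cyp2b10, Gstp1 and Ephx2, were chosen after their values were seen.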

Additional observations from a re-analysis of the deposited data

Results flagged for a closer look

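Over 46 enzymes, 170 groups of 4 arrays were examined for 1 array far from the other 3, and 3 were found (1.76%). Chance gives about 1 in 20. Aldh3a1 had a log2 level of -0.14 on ko_saline 3, below the 0.41 to 0.46 of the other ko_saline arrays, and its call over both genotypes held without that array (adjusted p = 0.0315). Cyp2b10 had 2.72 on wt_saline 1, below the 3.09 to 3.13 of the other wt_saline arrays. Gstp1 had 7.74 on wt_saline 3, below the 7.99 to 8.02 of the other wt_saline arrays. Cyp2b10 and Gstp1 passed in no comparison with all arrays fitted.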

How the results depend on the processing

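None of the enzymes followed in a comparison they passed, and none taken by the naming rule, reversed a called direction under any alternative run. The other enzymes named were not followed. With median scaling 7 members passed in wt (21 as reported), 0 in ko (7), 17 over both genotypes (33) and 0 between ko and wt over both agents (1). Among all genes it left 61 lower and 39 higher in wt (196 and 289 as reported), and 262 lower and 117 higher over both (509 and 691). With array position as a block 4, 2 and 14 passed with OVA in wt, in ko and over both, and 1 between ko and wt after OVA (0). In ko with OVA, 0 passed with only the arrays compared, 3 with slide as a fixed block, 2 with the striated muscle covariate and 3 with the Y-linked covariate. Between ko and wt after saline, array quality weights gave 1 and the deposited log2 values 1 (0). Over both agents, normexp gave 2, slide as a fixed block 0, array weights 4 and the deposited log2 values 2 (1). Chosen after seeing the data, leaving out wt_OVA 1 and wt_OVA 2 gave 11 in wt and 0 for ko against wt over both agents, and the arrays with Y-linked signal alone gave 1 for ko against wt after OVA and 0 over both agents. Fewer arrays remained where arrays were left out, and the cause of the changed counts was not tested. Leaving out 1 array at a time gave 11 to 23 members in wt, 1 to 10 in ko, 24 to 33 over both, 0 to 1 between ko and wt after OVA, 0 to 0 after saline, 1 to 3 over both agents and 0 to 0 for the interaction.

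The labels number the arrays 1 to 4 in each group. Deviations of same-numbered arrays correlated at 0.04 on average (-0.41 to 0.41 over 24 pairs), against -0.01 for other pairs (-0.57 to 0.48). Of 16 arrays, 7 correlated best with an array of their own number, and the count expected without pairing was not computed. Because the ranges overlap, these values cannot settle whether the numbers pair the arrays, and the main fit used no pairing. With a replicate block 19 members passed in wt, 6 in ko, 31 over both and 1 between ko and wt over both agents, and 0 in the other comparisons. Low signal limits members near the floor, such as Gstm7. It was at the floor on ko_OVA 2 and ko_OVA 4 but on no wild type array, so its change in ko may be understated.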
